A study of Mus musculus with 2 samples.

Results

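The genes of the voltage-gated calcium and sodium channels were examined in single nuclei of mouse hypothalamic neurons. Members were chosen by symbol alone: every calcium channel alpha1, alpha2delta, beta or gamma subunit gene and every sodium channel alpha or beta subunit gene, 40 of the 32285 genes counted. They comprised 4 L-type (Cav1), 3 Cav2 and 3 T-type (Cav3) alpha1 genes, 4 alpha2delta, 4 beta and 8 gamma genes, and 10 sodium channel alpha and 4 sodium channel beta genes. Nuclei from the arcuate nucleus (ARC) of male C57BL/6J mice, 10 to 12 weeks old, were enriched for neurons by a NeuN antibody in flow sorting and profiled by 10x single-nucleus RNA-seq as 1 gene expression library with 1 hashtag antibody library. No treatment, genotype or diet divides them, and no label ties a nucleus to a mouse. The hashtag library holds 2 antibody tags, named ARC and PVH; the sample labels name only the ARC, so that nuclei are called ARC-side and PVH-side here by their tag. Sim1, a transcription factor gene of the paraventricular hypothalamus, stood at 109 CPM (104 to 114; CPM is the unique molecular identifiers, UMIs, of a gene scaled to a fixed group total) in PVH-side nuclei and at 10.6 CPM (9.17 to 12.1) in ARC-side nuclei.

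Voltage-gated calcium channels couple depolarization to calcium entry. A pore-forming alpha1 subunit sets the channel class: L-type channels serve the soma and gene transcription, Cav2 channels serve transmitter release, and T-type channels open near rest and carry burst firing. The alpha2delta and beta subunits move the pore to the membrane and tune its gating, and most neuronal gamma subunits act as auxiliary subunits of AMPA receptors (TARPs). Sodium channel alpha subunits carry the action potential upstroke, and their beta subunits are adhesion-type partners. In the hypothalamus these channels set the pacemaking and bursting of neurons that govern feeding, reproduction and hormone release.

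After filtering and hashtag assignment, 3767 ARC-side nuclei (19492658 UMIs, median 4827 per nucleus) and 3074 PVH-side nuclei (16732895 UMIs, median 5039) remained. Each side was clustered without the channel genes, giving 13 ARC-side and 15 PVH-side clusters, which carry a name below only where a fixed marker list passed. A cluster was called glutamatergic or GABAergic by the higher of Slc17a6 and Slc32a1. ARC-side cluster 2 and PVH-side cluster 1 also carried 5 markers of non-neuronal cells each, with a summed oligodendrocyte marker level of 272 and 279 CPM against 99.5 CPM over all ARC-side neurons, and are called the mixed clusters. ARC-side cluster 2 passed the SIM1 list as well, by Sim1, Pou3f2 and Crh, and held 171 of the 206 ARC-side Sim1 UMIs (58.4 CPM). Agrp, the peptide gene of feeding-promoting ARC neurons, stood at 285 CPM in the cluster it helps to name, at 152 CPM over all PVH-side neurons and at 273 CPM in 30 non-neuronal nuclei, the last being cells with a summed astrocyte marker level of 2380 CPM and a summed tanycyte marker level of 2197 CPM. These 30 nuclei were found by a finer clustering and are also counted among the 3767 ARC-side nuclei, called ARC-side neurons below. Because all nuclei belong to 1 library and nuclei are not replicates, no test was possible: levels carry exact 95% Poisson intervals and ratios carry exact binomial intervals, both of which cover counting error only. A gene was compared where at least 20 UMIs were expected in the smaller group, and it counts as past the fold at 1.5-fold or more.

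The 40 channel genes together held 0.675% of ARC-side and 0.629% of PVH-side UMIs, and each of the 40 had UMIs on each side. The share was 0.299% in the non-neuronal nuclei. By cluster it ranged from 0.494% in PVH-side cluster 11 to 0.80% in ARC-side cluster 10. Scn2a, the sodium channel of the axon initial segment, gave 1 UMI in the non-neuronal nuclei (11.4 CPM, 95% interval 0.29 to 63.4) against 286 CPM in ARC-side neurons. The ARC-side neurons include those nuclei. Cacna1a, the P/Q-type pore, stood at 307 CPM in the non-neuronal nuclei and 1139 CPM in ARC-side neurons. Levels of different genes are compared per kilobase. No source used here says whether intronic reads were counted, and the order of genes differed between the gene body and the annotated exons as the length, so values on both are given. Per kilobase of gene body Cacna1a was highest in ARC-side neurons at 4.52 CPM per kb, followed by the TARP genes Cacng8 at 4.02 and Cacng7 at 2.82 CPM per kb. Per kilobase of exon Cacna1a was again highest, at 99.8 CPM per kb, followed by Cacnb2 at 55.8 and Cacna1d at 53.4 CPM per kb, which per kilobase of gene body were at 1.92 and 1.49. The sodium channel beta gene Scn2b was above the L-type pore Cacna1c per kilobase of gene body, 2.30 against 0.88 CPM per kb, and below it per kilobase of exon, 6.06 against 25.3 CPM per kb.

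Of the 40 genes, 33 gave at least 100 UMIs over both sides and form the groups below. The other 7 are listed by their total: the skeletal muscle L-type pore Cacna1s gave 29 UMIs, the muscle-type gamma gene Cacng1 gave 72, Cacng6 gave 28, the muscle sodium channel Scn4a gave 25, the sensory neuron channels Scn10a and Scn11a gave 20 and 35, and the beta gene Scn4b gave 5 UMIs over both sides. The members sit partly in tandem. Scn3a, Scn2a, Scn1a, Scn9a and Scn7a lie together on chromosome 2 (mm10), Scn10a and Scn11a on chromosome 9, Cacng7, Cacng8 and Cacng6 on chromosome 7 and Cacng1, Cacng4 and Cacng5 on chromosome 11. In the annotation 23 of the 40 genes overlap another gene and 9 overlap one on the same strand. Cacnb2 overlaps 15 annotated genes, 7 of them on its own strand, so its UMIs may hold some of theirs.

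**Figure D1:**
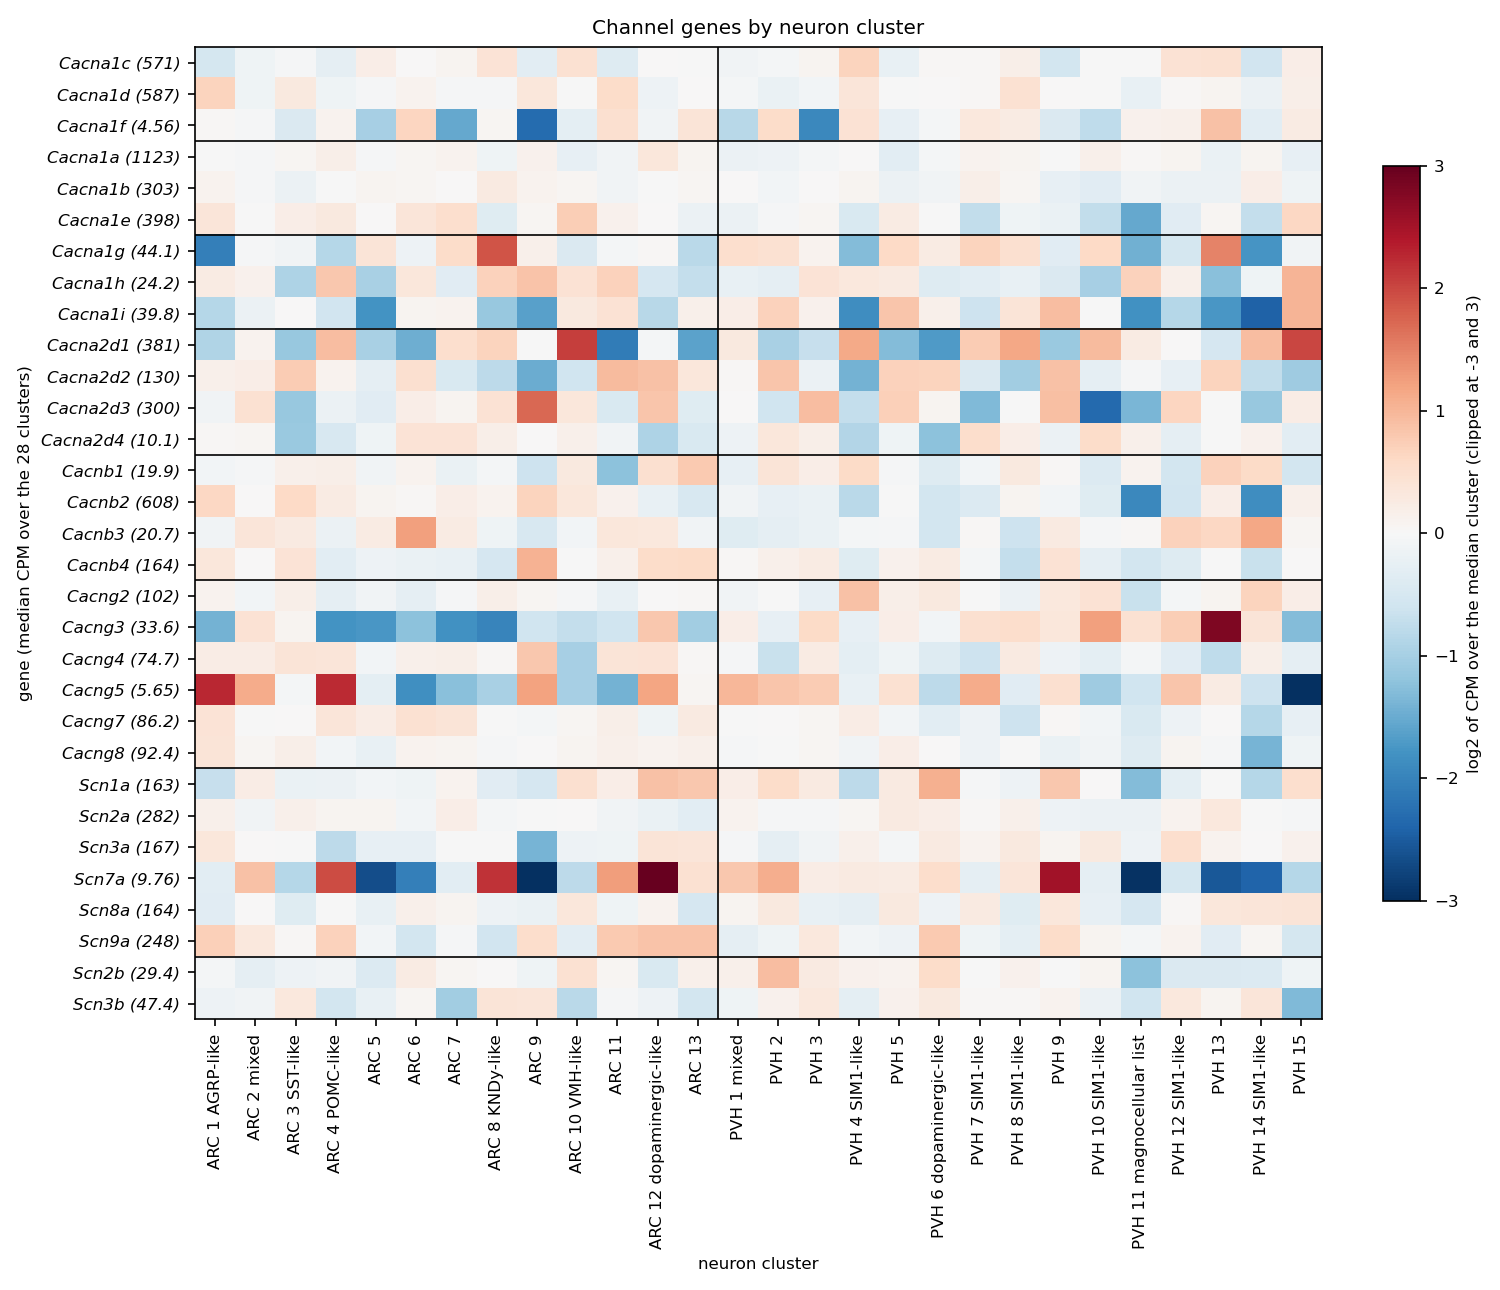
Heat map of 31 channel genes with at least 100 UMIs (rows, grouped by subunit class, median CPM over the 28 clusters in parentheses) in 13 ARC-side and 15 PVH-side clusters (columns). Color gives log2 of a cluster's CPM over the median cluster, with values beyond the ends of the color bar shown at its ends (Cacng5 in PVH 15 had 0 UMIs). Rows such as Cacna1b and Scn2a are nearly uniform, while Cacna2d1, Scn7a, Cacna1g and Cacng5 differ widely between clusters.

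Levels were then ranged over the 13 ARC-side clusters. Of 23 channel genes with at least 20 expected UMIs in every cluster, 14 differed by 2-fold or more between the highest and lowest cluster and 8 by 3-fold or more; their median ratio of highest to lowest was 2.69, beside 1.75 over all 6647 genes held to the same floor, of which 33.4% differed by 2-fold or more and 16.4% by 3-fold or more. Across the 15 PVH-side clusters 13 of 19 differed by 2-fold or more and 7 by 3-fold or more, with a median ratio of 2.38 beside 1.83 over 4121 genes, of which 39.9% and 19.6% did so. Cacna1a ran from 948 to 1413 CPM over the ARC-side clusters, Cacna1b (the N-type pore) from 270 to 362 CPM and Scn2a from 226 to 324 CPM. The alpha2delta gene Cacna2d1 ran from 89.6 to 1597 CPM, a ratio of 17.8, and the T-type pore Cacna1g from 10.7 to 164 CPM, a ratio of 15.4.

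The first comparison set PVH-side against ARC-side neurons. Only 2 of 34 channel genes compared were past 1.5-fold, 1 in each direction, where 5.82% of 16178 genes were higher and 5.44% lower. Cacng3, a TARP gene, was higher on the PVH side, 48.2 CPM (45.0 to 51.7) against 22.4 CPM (20.3 to 24.6), a log2 ratio of 1.11 (0.94 to 1.28). Cacng5, another TARP-family gene, was lower, 7.71 CPM against 12.4 CPM (log2 ratio -0.69, -1.01 to -0.37). Cacnb2, the beta gene with the most UMIs, lay just inside the fold at 495 against 738 CPM (log2 ratio -0.58). The median log2 ratio over the channel genes was 0.04, beside -0.04 over all genes compared. With the mean over nuclei of CPM in place of summed UMIs, Cacng5 fell short of the fold at -0.50. On the PVH side Cacng3 was highest in cluster 13, whose leading genes include Lhx9 and Tcf7l2, at 236 CPM (198 to 278) against 41.3 CPM in the other PVH-side neurons, and on the ARC side in the dopaminergic-like cluster and in mixed cluster 2, at 58.7 and 45.7 CPM.

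**Figure D2:**
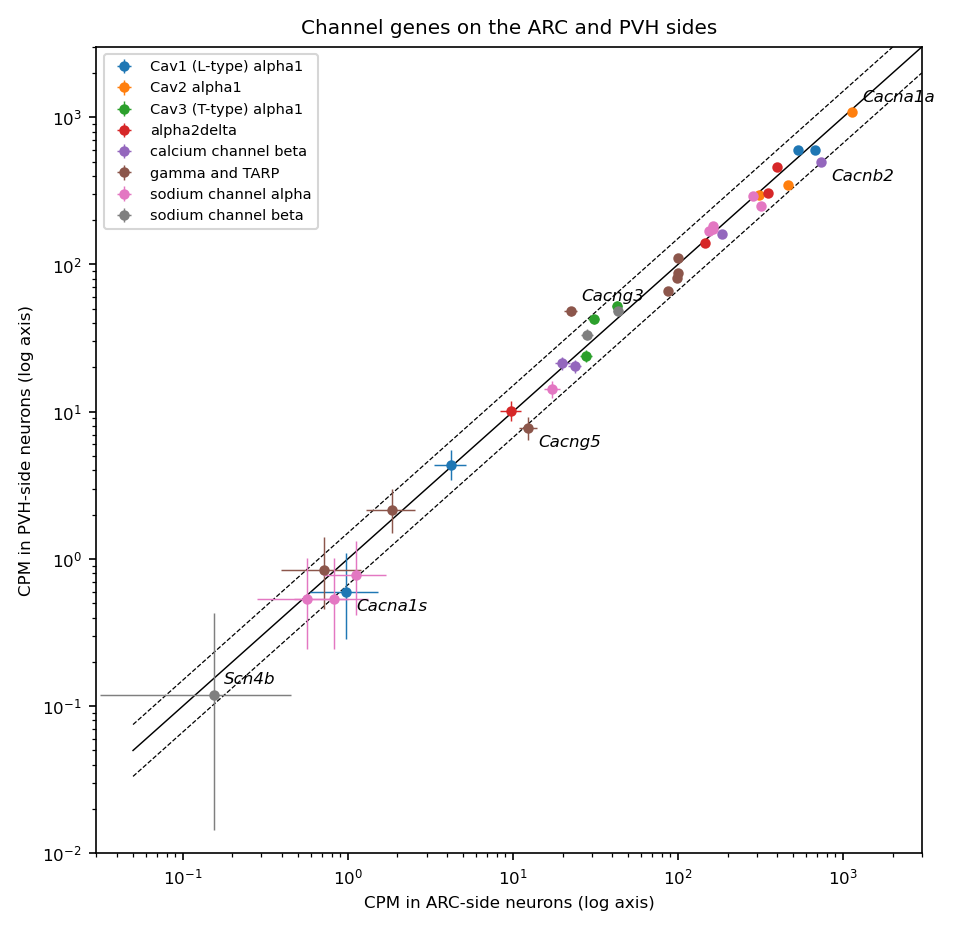
CPM of 38 channel genes in ARC-side (horizontal, log axis) and PVH-side neurons (vertical, log axis), with exact 95% Poisson intervals. The solid line marks equal levels and the dashed lines 1.5-fold. Cacng3 lies above and Cacng5 below the dashed lines, and the genes at the lower left, such as Scn4b with 5 UMIs, have wide intervals.

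The second comparison set glutamatergic against GABAergic clusters on each side, 1516 against 2251 ARC-side nuclei and 2112 against 962 PVH-side nuclei. Cacna2d1 was higher in glutamatergic clusters on both: 679 CPM (661 to 697) against 206 CPM (198 to 215) on the ARC side, log2 ratio 1.72 (1.65 to 1.79), and 580 against 166 CPM on the PVH side, log2 ratio 1.80 (1.70 to 1.91). On the ARC side 3 of 33 channel genes were past the fold, all higher, where 5.2% of all genes compared were higher and 4.09% lower. The other 2 were Cacna1g, 57.3 against 32.8 CPM, and Scn7a, a sodium-sensing relative of the sodium channels, 22.3 against 13.9 CPM. Scn7a fell short of the fold under 4 alternatives beside the 2-fold limit. It was at 0.27 with a hashtag quantile of 0.99 and at 0.54 with a finer clustering, which also left out the non-neuronal nuclei. Without the mixed clusters 7 were past the fold; Cacna1g was then at a log2 ratio of 1.00, Cacng3 at -0.84, the alpha2delta gene Cacna2d2 at -0.66 and the beta gene Cacnb4 at -0.61. On the PVH side 7 of 33 were past the fold, 2 higher and 5 lower, where 5.18% of genes were higher and 3.41% lower. Cacna2d2 was lower in glutamatergic clusters, 106 against 223 CPM (log2 ratio -1.08), as were the T-type pore Cacna1i at 33.4 against 64.2 CPM, Scn1a at 154 against 256 CPM and Scn7a at 10.3 against 23.5 CPM. Scn1a is the channel of fast-spiking interneuron axons in cortex. Cacng3 was higher, 54.0 against 34.3 CPM. When single nuclei were instead sorted by their own Slc17a6 or Slc32a1 UMI, Cacna2d1 stood at log2 ratios of 1.37 on the ARC side and 1.36 on the PVH side. By that sorting several of the PVH-side genes fell short of the fold: Scn1a at -0.57, Cacna1i at -0.38, Scn7a at -0.15 and Cacng3 at 0.25.

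Among the alpha2delta genes, Cacna2d1 was higher in the glutamatergic clusters of both sides. These subunits bind gabapentinoid drugs in the case of Cacna2d1 and Cacna2d2, and they set how many channels reach the presynaptic membrane. On the ARC side the 5 glutamatergic clusters held Cacna2d1 at 407 to 1597 CPM and the 8 GABAergic clusters at 89.6 to 379 CPM, so that the groups of clusters did not overlap; 0.12% of 6647 genes had every glutamatergic cluster higher. The edge was narrow, with the mixed cluster 2 at 407 CPM (384 to 431) and the GABAergic cluster 9 at 379 CPM (343 to 418). Cluster 2 counts as glutamatergic with Slc17a6 at 47.1 and Slc32a1 at 37.9 CPM. The further GABA marker genes Gad1 and Gad2 were at 66.2 and 161 CPM in it. They ran from 58.0 to 120 and from 78.3 to 203 CPM over the 8 GABAergic clusters. On the PVH side the 4 GABAergic clusters stood at 117 to 194 CPM and the 11 glutamatergic clusters at 236 to 1523 CPM, again without overlap, where 0.17% of 4121 genes had every glutamatergic cluster higher. The lowest of the 11, cluster 3, had Slc17a6 at 55.7 and Slc32a1 at 46.2 CPM. Its Gad1 and Gad2 were at 75.5 and 194 CPM, near the 82.8 to 110 and 212 to 261 CPM of the 4 GABAergic clusters. The glutamatergic clusters 4 and 10 had Gad1 at 13.1 and 24.3 CPM and Gad2 at 58.5 and 135 CPM. Cluster 3 is thus glutamatergic by the Slc17a6 rule only. The highest levels were in the VMH-like cluster 10 at 1597 CPM (1522 to 1675) and in PVH-side cluster 15 at 1523 CPM (1399 to 1654). Both have Gpr149, a marker in the fixed VMH list, among their leading genes. In the VMH-like cluster 99.5% of 191 nuclei had a Cacna2d1 UMI, against 59.5% of 709 AGRP-like nuclei and 9 of the 30 non-neuronal nuclei; median depths were 5276, 5022 and 2557 UMIs. After thinning each nucleus to 1000 UMIs the shares were 79.6%, 19.6% and 13.3%.

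Cacna2d2 was higher in each of the 4 GABAergic than in each of the 11 glutamatergic clusters of the PVH side, where 0.146% of genes had every glutamatergic cluster lower, and the groups overlapped on the ARC side. The PVH-side gap lay within counting error, 206 CPM in the GABAergic cluster 6 and 205 CPM in the glutamatergic cluster 13. Cacna2d2 was highest in the GABAergic clusters 11 and 12 on the ARC side, 251 and 238 CPM, and in the GABAergic PVH-side clusters 9 and 2, 239 and 232 CPM. It was lowest in the GABAergic ARC-side cluster 9, at 46.2 CPM, and in the SIM1-like PVH-side cluster 4, at 48.9 CPM. Over the 28 clusters the log levels of Cacna2d1 and Cacna2d2 had a Pearson correlation of -0.74, the lowest of all pairs of channel genes; the clusters share 1 library, and this is a description. The GABAergic ARC-side cluster 9, led by Chat and Moxd1, stood apart with Cacna2d3 at 988 CPM (930 to 1049) against 312 CPM in the other ARC-side neurons. Of its nuclei 98.0% had a Cacna2d3 UMI (57.8% after thinning), and Cacna2d3 made up 48.1% of its alpha2delta signal per kilobase of gene body, beside 16.8% over all ARC-side neurons, and 75.2% beside 43.8% per kilobase of exon. Cacna2d3 was lowest in the SIM1-like PVH-side cluster 10 at 59.4 CPM. Cacna2d4, best known from the retina, stayed at 9.75 CPM on the ARC side and 10.2 CPM on the PVH side. In the VMH-like cluster Cacna2d1 made up 74.8% of the alpha2delta signal per kilobase of gene body and 69.9% per kilobase of exon. Cacna2d2 made up 77.8% in ARC-side cluster 11 and 73.9% in the SST-like cluster by gene body, and 48.8% and 48.0% by exon.

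**Figure D3:**
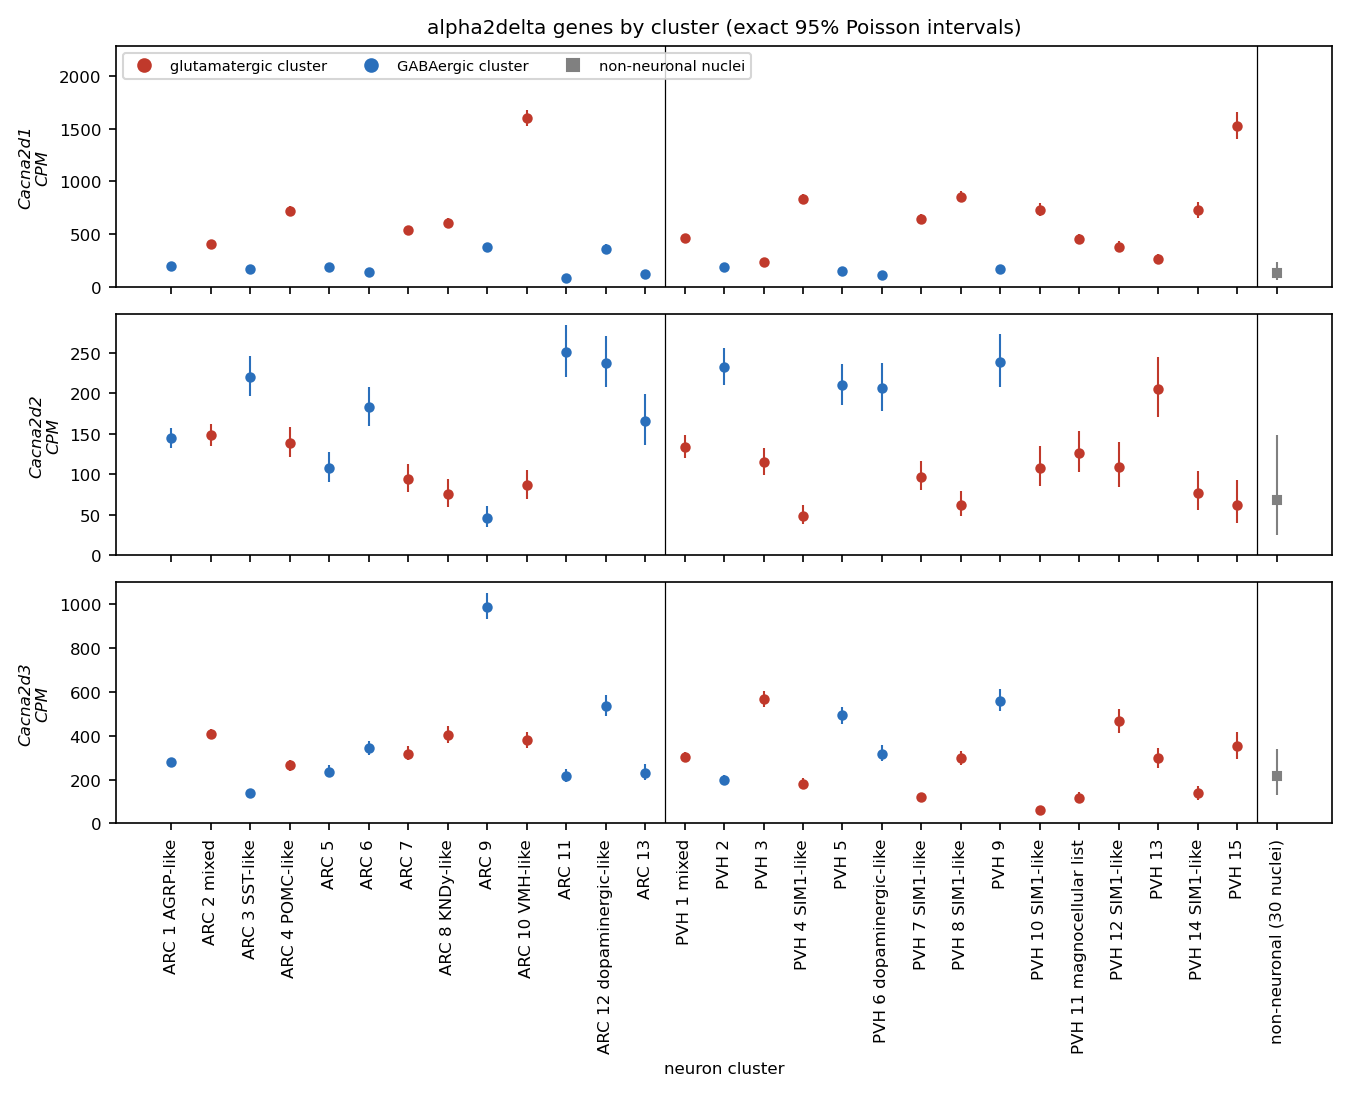
CPM of Cacna2d1, Cacna2d2 and Cacna2d3 in each ARC-side and PVH-side cluster and in 30 non-neuronal nuclei (squares), with exact 95% Poisson intervals. Red clusters are glutamatergic and blue clusters GABAergic by Slc17a6 and Slc32a1. Cacna2d1 peaks in ARC 10 and PVH 15, and Cacna2d3 in ARC 9 at 988 CPM.

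The promoters of these 3 genes are shown because their levels differ between clusters in unlike ways. In mm10 Cacna2d1 spans chr5:15934691-16374511 on the plus strand, Cacna2d2 chr9:107399612-107529343 on the plus strand and Cacna2d3 chr14:28904943-29721864 on the minus strand. Each window runs from 250 bases before to 50 after a RefSeq transcript start (GRCm38.p6), and capitals mark the GC box GGGCGG or its reverse complement CCGCCC, read on both strands. Cacna2d1 lies at chr5:15934441-15934740 (plus strand), Cacna2d2 at chr9:107399630-107399929 (plus strand) and Cacna2d3 at chr14:29721815-29722114 (minus strand). The Cacna2d2 window lies wholly inside the annotated gene, while those of Cacna2d1 and Cacna2d3 lie mostly before the gene start.
Cacna2d1: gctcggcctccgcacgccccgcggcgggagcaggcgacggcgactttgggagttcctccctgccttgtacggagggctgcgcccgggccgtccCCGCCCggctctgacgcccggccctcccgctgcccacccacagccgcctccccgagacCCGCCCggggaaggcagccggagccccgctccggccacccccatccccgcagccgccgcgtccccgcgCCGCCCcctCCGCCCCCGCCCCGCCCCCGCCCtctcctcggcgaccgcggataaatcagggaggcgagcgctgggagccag
Cacna2d2: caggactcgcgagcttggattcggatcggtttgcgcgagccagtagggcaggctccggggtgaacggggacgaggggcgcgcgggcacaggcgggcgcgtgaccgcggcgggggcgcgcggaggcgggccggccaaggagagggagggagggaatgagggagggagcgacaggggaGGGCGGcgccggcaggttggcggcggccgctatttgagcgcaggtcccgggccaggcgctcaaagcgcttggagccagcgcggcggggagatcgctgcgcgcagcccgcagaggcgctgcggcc
Cacna2d3: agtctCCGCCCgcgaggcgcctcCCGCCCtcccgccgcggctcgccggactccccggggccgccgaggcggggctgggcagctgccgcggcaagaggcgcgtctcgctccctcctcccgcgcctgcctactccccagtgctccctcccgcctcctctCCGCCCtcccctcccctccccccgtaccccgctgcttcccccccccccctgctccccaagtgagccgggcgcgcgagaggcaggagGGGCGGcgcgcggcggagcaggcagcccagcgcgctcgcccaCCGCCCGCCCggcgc
All 3 windows are rich in G and C, at 80%, 75.7% and 81.3%, with 42, 43 and 41 CpG dinucleotides, against medians of 52.7% and 7 over 32851 RefSeq windows. The GC box occurs 7 times in the Cacna2d1 window, 1 time in that of Cacna2d2 and 6 times in that of Cacna2d3. Windows were found for 30 of the 40 members, 41 in all; 16 of these 41 held a GC box, beside 35.7% of all windows. The letters CAAGGTCA (named for SF-1, the product of the VMH marker gene Nr5a1), TGACGTCA (the cyclic AMP response element) and CACGTG (the E-box) occurred in 0 of the 41 member windows and in 1.56%, 1.79% and 7.15% of all windows.

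Among the L-type pores, Cacna1d, the channel that opens at lower voltage and drives pacemaking, was highest in the AGRP-like cluster at 937 CPM (907 to 968) against 609 CPM in the other ARC-side neurons; without the mixed clusters its log2 ratio was 0.58, just short of the fold. The next cluster was 11 at 853 CPM, and the lowest was the dopaminergic-like cluster 12 at 528 CPM. Cacna1c was lowest in the AGRP-like cluster at 396 CPM and highest in the VMH-like and KNDy-like clusters at 778 and 756 CPM; on the PVH side it peaked in the SIM1-like cluster 4 at 912 CPM (863 to 962). Cacna1f, the retinal L-type pore, gave 4.21 CPM on the ARC side. Among Cav2 pores, Cacna1e, which carries R-type current, varied most. It was 661 CPM in the VMH-like cluster and 312 CPM in the KNDy-like cluster, and on the PVH side it ran from 138 CPM in cluster 11 to 610 CPM in cluster 15.

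The T-type pores divided the classes further. Cacna1g was 164 CPM (140 to 190) in the KNDy-like cluster and 36.0 CPM in the other ARC-side neurons, a log2 ratio of 2.19 (1.94 to 2.43). KNDy neurons are known to drive reproductive hormone pulses; of the markers that name this cluster, Kiss1 gave only 3 UMIs (2.86 CPM), the others being Tac2, Pdyn, Tacr3 and Esr1. In the AGRP-like cluster Cacna1g was 10.7 CPM (7.65 to 14.5) against 50.8 CPM, a log2 ratio of -2.25 (-2.74 to -1.80). The other 11 ARC-side clusters lay between 24.4 and 64.8 CPM. A Cacna1g UMI was present in 50.2% of KNDy-like and 5.36% of AGRP-like nuclei, and in 6.67% of the non-neuronal nuclei; after thinning the shares were 12.3%, 0.564% and 3.33%. The PVH-side peak was cluster 13 at 125 CPM (97.8 to 156). Cacna1h was highest in ARC-side clusters 9 and 4, 43.5 and 42.7 CPM. It made up 57.3% and 54.0% of the T-type signal per kilobase of gene body in the AGRP-like and POMC-like clusters, and 47.3% and 46.0% per kilobase of exon. Cacna1i was 53.8 CPM in ARC-side cluster 11 and 11.5 CPM in cluster 5, and on the PVH side it reached 81.3 CPM in cluster 15 and was 7.37 CPM in cluster 14.

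The beta genes, which escort the pore and shape inactivation, differed in their spread over clusters. Cacnb2 ran from 436 CPM in ARC-side cluster 13 to 962 CPM in cluster 9, and on the PVH side clusters 11 and 14 stood at 160 and 168 CPM, below the 348 CPM of the next lowest cluster, 4. It was 649 CPM (492 to 841) in the non-neuronal nuclei. Per kilobase of gene body Cacnb2 and Cacnb3 were at 1.92 and 1.73 CPM per kb over ARC-side neurons, and per kilobase of exon at 55.8 and 5.91 CPM per kb. Cacnb4 was highest in ARC-side cluster 9 at 337 CPM and lowest in the KNDy-like cluster at 115 CPM. Cacnb3 peaked in ARC-side cluster 6 at 48.3 CPM, and Cacnb1 ran from 8.43 to 34.0 CPM over the ARC-side clusters.

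Among the gamma genes, Cacng7 and Cacng8 were even on the ARC side, 79.0 to 118 CPM and 79.0 to 121 CPM, as was Cacng2 at 83.9 to 115 CPM. Per kilobase of gene body Cacng8 made up 42.1% and Cacng7 29.5% of the TARP signal in ARC-side neurons, and per kilobase of exon 31.2% and 29.6%. Cacng5 was highest in the feeding-related classes, 27.3 CPM (22.3 to 33.1) in the AGRP-like cluster and 26.8 CPM (19.5 to 36.0) in the POMC-like cluster, with the other 11 ARC-side clusters at 1.58 to 12.9 CPM. Over all ARC-side neurons it was 12.4 CPM. Cacng3 was 58.7 CPM in the dopaminergic-like cluster and 8.58 CPM in the KNDy-like cluster. Cacng4 was 130 CPM in ARC-side cluster 9 and 37.5 CPM in the VMH-like cluster.

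Sodium channel alpha genes divided into an even and a variable set. Scn2a, Scn8a (the channel of mature nodes and axon initial segments) and, on the PVH side, Scn3a differed by under 2-fold between clusters. Scn9a, known from pain-sensing neurons, was the highest sodium channel alpha gene on the ARC side at 2.07 CPM per kb of gene body and 25.1 CPM per kb of exon. It was 408 CPM in the AGRP-like cluster, 403 CPM in the POMC-like cluster and 449 CPM in the dopaminergic-like cluster, and 167 and 170 CPM in the KNDy-like cluster and cluster 6. Its level in the non-neuronal nuclei was 216 CPM. Scn1a was highest in the dopaminergic-like cluster 12 and in cluster 13 on the ARC side, 299 and 284 CPM, and in the PVH-side clusters 6 and 9, 341 and 287 CPM; all 4 are GABAergic. Scn1a was lowest in PVH-side cluster 11 at 66.4 CPM. Scn3a was 63.8 CPM in ARC-side cluster 9 and 97.0 CPM in the POMC-like cluster, with the other ARC-side clusters at 140 to 218 CPM.

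Scn7a was low overall and concentrated in a few clusters. It was 90.7 CPM (72.4 to 112) in the dopaminergic-like cluster, with 31.9% of its nuclei carrying a UMI (8.79% after thinning), 43.8 CPM in the KNDy-like cluster, 37.8 CPM in the POMC-like cluster and 56.4 CPM in PVH-side cluster 9. In ARC-side cluster 9 it gave 1 UMI. Scn7a was also 216 CPM (130 to 338) in the non-neuronal nuclei, from 16.7% of them (6.67% after thinning). The summed astrocyte marker level was 13.9 CPM in the dopaminergic-like cluster, 10.5 CPM in the KNDy-like cluster, 12.2 CPM in the POMC-like cluster and 31.96 CPM over all ARC-side neurons. The part of these markers in the Scn7a levels was not tested.

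**Figure D4:**
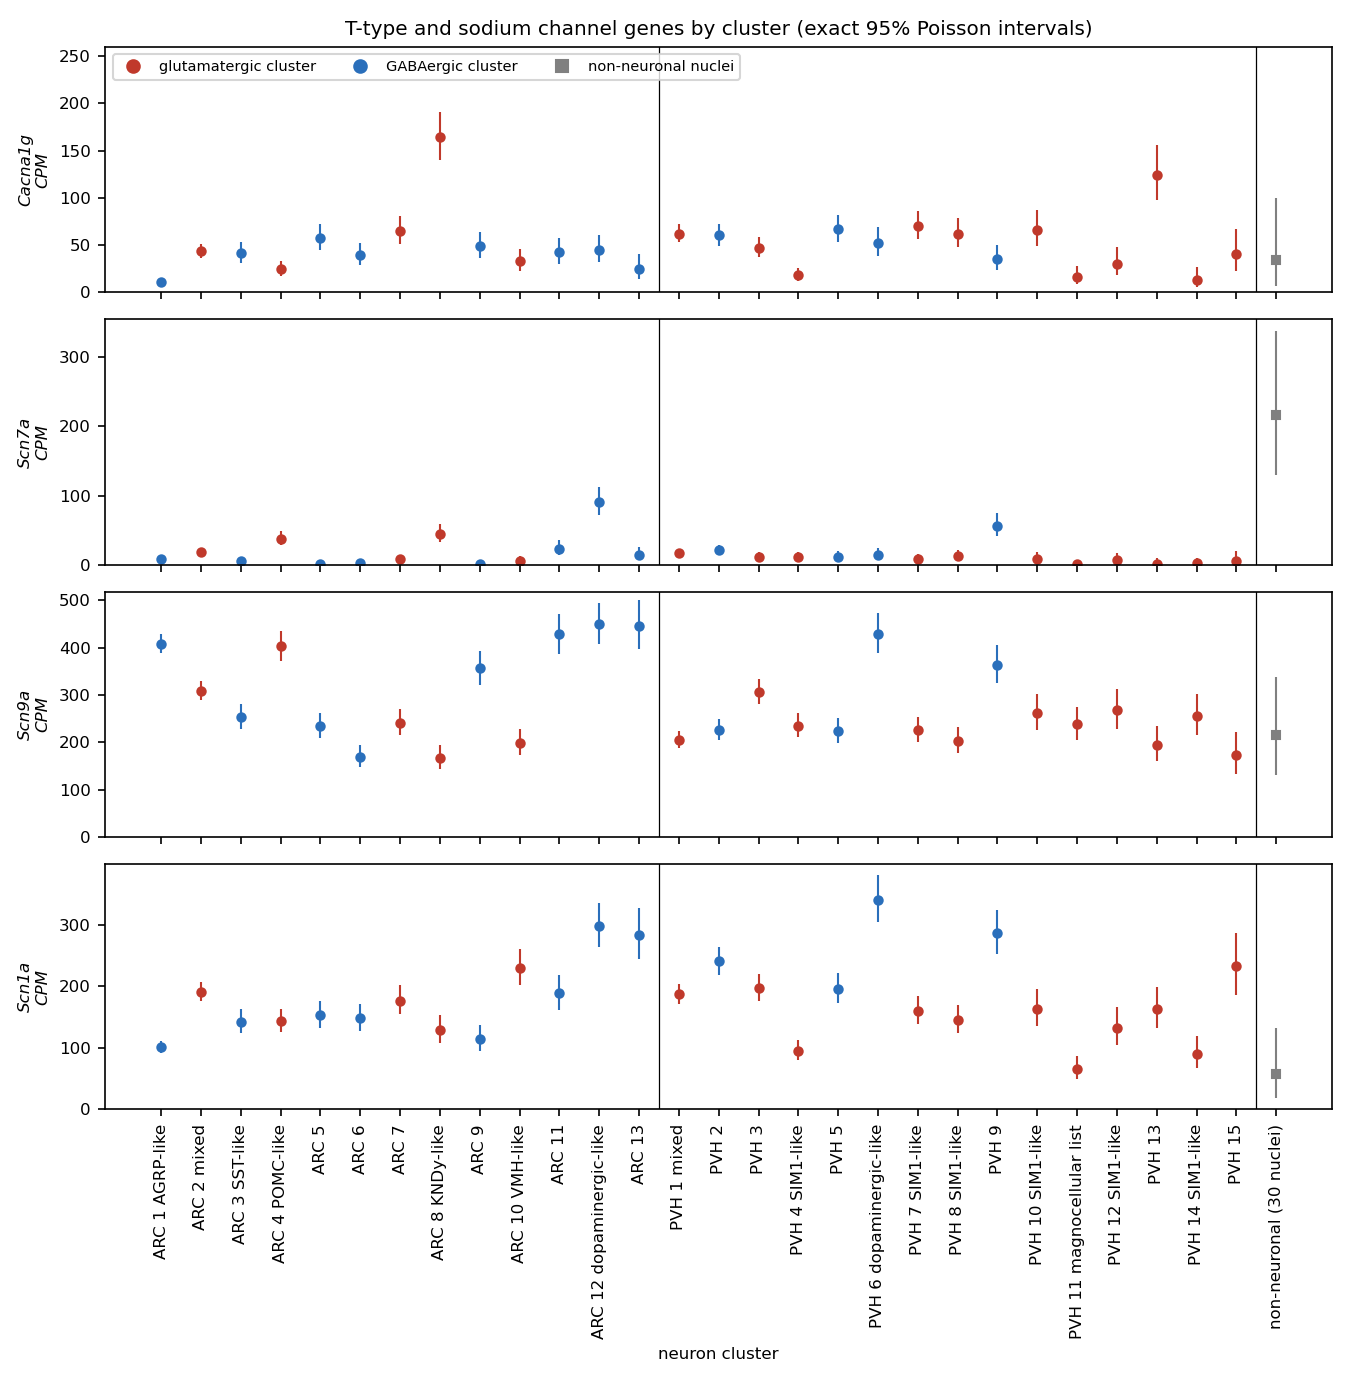
CPM of the T-type pore gene Cacna1g and of the sodium channel genes Scn7a, Scn9a and Scn1a in each cluster and in 30 non-neuronal nuclei (squares), with exact 95% Poisson intervals. Cacna1g peaks in the KNDy-like cluster at 164 CPM, and Scn7a is highest in the non-neuronal nuclei at 216 CPM.

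Of the sodium channel beta genes, Scn2b ran from 21.3 CPM in the dopaminergic-like cluster to 40.3 CPM in the VMH-like cluster on the ARC side, and from 12.5 CPM in cluster 11 to 56.3 CPM in cluster 2 on the PVH side. Scn3b ran from 22.9 CPM in cluster 7 to 62.0 CPM in the KNDy-like cluster on the ARC side, and from 19.0 CPM in cluster 15 to 60.8 CPM in cluster 14 on the PVH side. Scn2b on both sides and Scn3b on the PVH side were under 20 expected UMIs in at least 1 cluster. Over the 28 clusters the log levels of Scn1a and Cacna1i had a Pearson correlation of 0.70, given as a description of clusters of 1 library. Cacna1e with Cacnb2, at 0.79, and Cacnb2 with Cacng8, at 0.71, were higher.

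Each named ARC-side class was then set against the other ARC-side neurons. In the AGRP-like class (709 nuclei), whose neurons promote feeding, 8 of 32 channel genes compared were past the fold, 2 higher and 6 lower, where 4.76% of genes were higher and 8.59% lower. The higher genes were Cacng5 (log2 ratio 1.64) and Cacna1d (0.62). The lower genes included Cacna1g (-2.25), Scn7a (-1.33), Cacna2d1 (-1.14), Cacng3 (-0.99) and Scn1a (-0.81). The median size of the log2 ratio, without sign, was 0.31 over the channel genes and 0.17 over all genes compared.

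In the POMC-like class (281 nuclei), whose neurons restrain feeding, 8 of 31 were past the fold, 4 in each direction, where 3.6% of genes were higher and 7.84% lower. Cacna2d1 stood at 724 CPM against 369 CPM, Cacng5 at 26.8 against 11.1 CPM, Scn7a at 37.8 against 15.4 CPM and Cacna1h at 42.7 against 26.4 CPM. Cacng3, Cacna1g and Scn3a were lower, at log2 ratios of -1.27, -0.87 and -0.80. After thinning to 1000 UMIs per nucleus, where fewer genes reach 20 expected UMIs, 2 were past the fold.

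In the KNDy-like class (211 nuclei) 9 of 29 were past the fold, where 5.32% of genes were higher and 10.7% lower. Cacna1g (log2 ratio 2.19) and Cacna2d1 (0.65) were higher. The 6 lower genes were Cacng3 at -1.43, Cacna2d2 at -0.99, Scn9a at -0.98, Cacna1i at -0.80, Cacnb4 at -0.71 and Cacna1e at -0.59. Of the 3 T-type pores, then, this class had more Cacna1g and less Cacna1i than the rest, and Cacna1g made up 75.2% of its T-type signal per kilobase of gene body, beside 46.6% over all ARC-side neurons, and 73.5% beside 41.4% per kilobase of exon.

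In the VMH-like class (191 nuclei, named by Nr5a1, Fezf1 and others) 7 of 29 were past the fold, where 5.06% of genes were higher and 11.4% lower. Cacna2d1 was 1597 CPM against 330 CPM, a log2 ratio of 2.28 (2.20 to 2.35), and Cacna1i was higher at 0.71. Cacng4 (-1.26), Cacna2d2 (-0.79), Scn9a (-0.72) and Scn3b (-0.70) were lower. After thinning 4 were past the fold. The SST-like class (292 nuclei) was named by Sst, Otp and Unc13c. Sst was at 172 CPM in it, beside 66.6 to 94.9 CPM in the other ARC-side clusters. Npy1r, the further marker of that list, did not pass, at 4.04 CPM. In the SST-like class 6 of 30 were past the fold, where 3.23% of genes were higher and 5.82% lower. Cacng3 and Cacna2d2 were higher at 0.75 and 0.66, and Scn7a (-1.76), Cacna2d3 (-1.42), Cacna2d1 (-1.28) and Cacna1h (-1.18) were lower; after thinning 2 were past the fold.

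In the dopaminergic-like class (182 nuclei, with Slc6a3 and Th) 6 of 28 were past the fold, where 4.29% of genes were higher and 10.4% lower. Cacng3 was 58.7 CPM against 20.5 CPM (log2 ratio 1.51, 1.08 to 1.93), Scn1a 299 against 155 CPM (0.94), Cacna2d2 238 against 141 CPM (0.76) and Cacna2d3 536 against 340 CPM (0.66). Cacna1h was lower at -0.73. Cacna2d3 turned to a log2 ratio of -0.58 with a finer clustering, at a resolution of 1.2, which also left out the non-neuronal nuclei. With a stricter hashtag quantile of 0.99 only 2 genes of this class were past the fold. At the finer resolution Cacna2d2 was at 0.07. The summed oligodendrocyte marker level in this cluster was 117 CPM, beside 49.6 to 86.0 CPM in the other ARC-side clusters outside mixed cluster 2, and its part in these ratios was not tested.

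On the PVH side the SIM1-like class, 999 nuclei in 6 clusters, had 7 of 33 genes past the fold, where 4.3% of genes were higher and 6.0% lower. Cacna2d1 was higher, 726 against 322 CPM (log2 ratio 1.17, 1.11 to 1.24). Cacna2d2, Cacna1i, Scn7a, Cacna2d3 and Scn1a were lower, at -1.12, -0.91, -0.87, -0.83 and -0.68. All 6 clusters were glutamatergic, while the other PVH-side neurons included the 4 GABAergic clusters. Of these genes, Cacna2d1, Cacna2d2, Cacna1i, Scn7a and Scn1a were past the fold in the same direction between glutamatergic and GABAergic PVH-side clusters. The part of transmitter type in the SIM1-like ratios was not tested. The 6 clusters were not alike. Cluster 4 had Cacna1c at 912 CPM and Cacng2 at 186 CPM, while cluster 14 had Cacna1c at 383 CPM and Cacng8 at 35.0 CPM, the lowest Cacng8 level of all 28 clusters.

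PVH-side cluster 11 (107 nuclei, median 7088 UMIs) passed both the SIM1 list and the magnocellular list, and so carries no single name. It passed the SIM1 list by Sim1, Otp and Pou3f2, and the magnocellular list by Oxt, Sim1 and Otp. Oxt, the oxytocin gene, was at 2003 CPM against 616 CPM over all PVH-side neurons. Avp, the further marker of the magnocellular list, did not pass. In this cluster 0 of 26 channel genes were higher by 1.5-fold and 11 were lower, where 5.77% of all genes compared were higher and 15.6% lower. The median log2 ratio of the channel genes was -0.46, beside -0.10 over all genes. Summed tanycyte markers were at 164 CPM here, beside 91.4 CPM over all PVH-side neurons. Those of oligodendrocyte precursors were at 43.8 CPM, all from Vcan, beside 13.4 CPM. Astrocyte, oligodendrocyte and microglia markers were lower, at 7.52, 41.3 and 95.2 CPM beside 25.3, 101 and 119 CPM. The part of these markers in the ratios was not tested. Among calcium channel pores, Cacna1i was at 11.3 against 44.0 CPM, Cacna1g at 16.3 against 54.4 CPM and Cacna1e at 138 against 359 CPM. The third T-type pore, Cacna1h, was at 38.8 against 23.2 CPM (26.4 to 55.1 against 20.9 to 25.7), with under 20 expected UMIs and so outside the counts. Scn1a was at 66.4 against 190 CPM and Scn2b at 12.5 against 34.3 CPM. Cacnb2 was 160 against 512 CPM (log2 ratio -1.67, -1.94 to -1.42) and Cacna2d3 116 against 313 CPM. Cacng2 and Scn3b were also lower, at -0.83 and -0.65, but Scn3b was at 0.50 after thinning, where it was under 20 expected UMIs, and Cacng2 at 0.064 with the stricter hashtag quantile of 0.99. Cacna1g stood at -0.19 after thinning, also under 20 expected UMIs, and Cacna2d3 at -0.20 with a coarser clustering of resolution 0.3. Cacna1a, at 1154 CPM, and Cacna1b, at 281 CPM, stood near the other PVH-side neurons, with log2 ratios of 0.10 and -0.08.

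**Figure D5:**
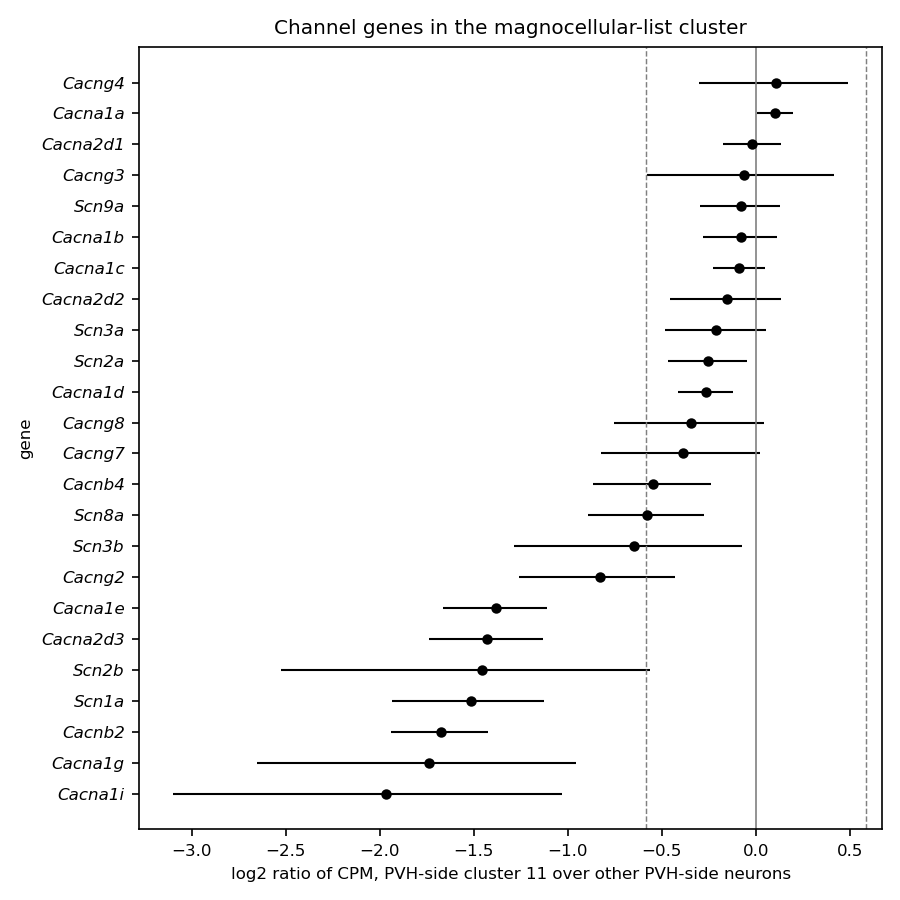
Log2 ratio of CPM in PVH-side cluster 11 over the other PVH-side neurons for 24 of the channel genes compared, with exact binomial 95% intervals. The solid line is equality and the dashed lines are 1.5-fold. No gene lies beyond the right dashed line, and 9 of those drawn lie beyond the left.

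The other clusters without a name, and PVH-side clusters 6 and 14, were each set against the rest of their side. The mixed clusters had few genes past the fold. In ARC-side cluster 2 this was 1 of 32 higher, Cacng3 at a log2 ratio of 1.33 beside the Sim1 level given above, and 1 lower, where 3.48% of genes were higher and 4.35% lower, and in PVH-side cluster 1 it was 2 of 32 higher and 0 lower, where 1.81% were higher and 2.88% lower. ARC-side cluster 5 (279 nuclei, GABAergic) had 1 of 30 genes higher and 6 lower, where 4.02% of genes were higher and 8.03% lower. Cacna1i was 11.5 against 32.2 CPM, Cacna1h 12.3 against 28.9 CPM and Cacna2d1 193 against 414 CPM. ARC-side cluster 6 (262 nuclei, GABAergic) had 1 of 30 higher and 4 lower, where 4.02% were higher and 7.12% lower. Its higher gene was the beta gene Cacnb3, 48.3 against 22.0 CPM, and Scn9a was 170 against 330 CPM. ARC-side cluster 7 (249 nuclei, glutamatergic, led by Smoc2 and Ntng2) had 2 of 30 higher and 4 lower, where 2.95% were higher and 5.9% lower. Cacna1g was 64.8 against 41.3 CPM, and Scn3b was 22.9 against 44.7 CPM.

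ARC-side cluster 9 (204 nuclei) had the highest ARC-side Cacna2d3, Cacnb4 and Cacng4 levels and the lowest Cacna2d2 and Scn3a levels, with 4 of 29 genes higher and 6 lower, where 4.76% were higher and 9.08% lower. Cacnb4 was 337 against 175 CPM and Scn3a 63.8 against 169 CPM. ARC-side cluster 11 (190 nuclei, GABAergic, led by Tbx19 and Crhr2) had 3 of 28 higher and 2 lower, where 3.39% were higher and 7.35% lower. Cacna2d2 was 251 against 140 CPM and Cacna1i 53.8 against 29.7 CPM, while Cacna2d1 was 89.6 against 415 CPM and Cacna2d3 217 against 356 CPM. ARC-side cluster 13 (133 nuclei, GABAergic, with Lhx1 among its leading genes) had 1 of 23 higher and 5 lower, where 3.94% were higher and 8.68% lower. Scn1a was 284 against 158 CPM, and Cacnb2 was 436 against 749 CPM.

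On the PVH side, cluster 2 (362 nuclei, GABAergic, with Meis2 and Pax6) had 5 of 30 higher and 3 lower, where 3.1% were higher and 6.06% lower; the sodium channel beta gene Scn2b was 56.3 against 30.5 CPM. Cluster 3 (347 nuclei, glutamatergic by the Slc17a6 rule only, with Hmx2 and Hmx3) had 1 of 30 higher and 1 lower, where 3.27% were higher and 4.78% lower. Cacna2d3 was at 565 against 275 CPM and Cacna2d1 at 236 against 483 CPM. Gad1 and Gad2 in this cluster, at 75.5 and 194 CPM, were near the levels of the GABAergic clusters. Cluster 5 (235 nuclei, GABAergic) had 4 of 29 higher and 1 lower, where 3.52% were higher and 5.44% lower, with Cacna2d3 at 493 against 288 CPM and Cacna2d1 at 154 against 484 CPM. Cluster 6 (197 nuclei, GABAergic) passed the dopaminergic list without Th and with only 3 Slc6a3 UMIs (3.26 CPM), and had 3 of 27 higher and 3 lower, where 3.12% were higher and 6.49% lower. Scn1a was 341 against 175 CPM and Scn9a 429 against 240 CPM there.

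PVH-side cluster 9 (168 nuclei, GABAergic, led by Lhx8 and the Onecut genes) had 5 of 27 higher and 4 lower, where 2.52% were higher and 6.11% lower. Cacna2d3 was 560 against 289 CPM, Cacna1i 75.6 against 40.6 CPM and Scn1a 287 against 178 CPM, and Cacna1c was 389 against 608 CPM. Cluster 13 (97 nuclei, glutamatergic) had 2 of 24 higher and 4 lower, where 5.08% were higher and 12.0% lower. Its Cacng3 level of 236 CPM was the highest of all 28 clusters, and Cacna1g was 125 against 49.9 CPM. Cluster 14 (88 nuclei, SIM1-like) had 1 of 23 higher and 10 lower, where 5.53% were higher and 14.7% lower. Cacnb2 was 168 against 506 CPM and Cacng8 35.0 against 89.9 CPM in it. Cluster 15 (66 nuclei, glutamatergic) had 2 of 19 higher and 1 lower, where 4.03% were higher and 8.95% lower, with Cacna2d1 at 1523 against 435 CPM and Cacna1e at 610 against 342 CPM.

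Partners of the channels were read from 5 further lists, for which the shares of all genes past the fold are those given for each class above. PVH-side cluster 6 was not compared for them. Of 9 sodium channel partners, 7 could be compared in each class. Fgf12 was lower in the AGRP-like class, Nedd4l was higher in the SST-like class, and Ank3 and Nedd4l were lower in PVH-side cluster 11. Fgf13, a cytosolic protein that binds sodium channel tails, was past the fold in 7 classes: 1085 against 272 CPM in the KNDy-like class, 512 against 267 CPM in the AGRP-like class, 163 against 330 CPM in the POMC-like class, 165 against 324 CPM in the VMH-like class, 43.8 against 338 CPM in the SST-like class, 108 against 326 CPM in the dopaminergic-like class and 116 against 242 CPM in the SIM1-like class. Of 11 calcium channel partners and inhibitors, 9 could be compared in the AGRP-like class and 5 were lower there: Gem, Stac, Stac2, Cabp1 and Cachd1, where 8.59% of all genes compared were lower. Stac and Cachd1 were also lower in the POMC-like, KNDy-like and SIM1-like classes. Gem was also lower in the KNDy-like class, and Gem and Stac in the VMH-like class. Elsewhere Stac and Cachd1 were higher in the SST-like class, Gem in the POMC-like and dopaminergic-like classes, and Stac and Cabp1 in PVH-side cluster 11. Gem, a small GTPase that lowers calcium current, was 104 against 23.2 CPM in the POMC-like class and 14.8 against 33.7 CPM in the AGRP-like class. All 9 active zone genes stayed within 1.5-fold in the AGRP-like, POMC-like, VMH-like, SST-like and SIM1-like classes, Rims4 and Erc1 were higher in the KNDy-like class and in PVH-side cluster 11, Pclo was higher in the dopaminergic-like class and Rims1 was lower in PVH-side cluster 11. The 4 sodium leak channel genes compared were within 1.5-fold in the same classes, and Nalcn and its partner gene Fam155a were lower in PVH-side cluster 11. Of 6 endolysosomal and sperm relatives 1 to 4 could be compared, Catsper3 was lower in the AGRP-like class, and Tpcn1, a cation channel gene of endolysosomes, was lower in the POMC-like, KNDy-like and VMH-like classes and higher in the dopaminergic-like class.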

How the data were processed

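Single nuclei of 1 gene expression library and 1 hashtag library were read from the deposited matrix, whose values are UMI counts per gene and barcode; per the labels the authors used Cell Ranger 5.0 (the matrix header gives 4.0.0), mm10 and Seurat 4. No source used here says whether intronic reads were counted. The barcode and feature lists deposited with it are other, non-numeric entries.

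Of 11409 barcodes, 10170 passed limits of over 800 and under 5000 genes, up to 12000 counts and up to 1% mitochondrial counts. HTODemux (Seurat 5.3.0, positive quantile 0.8, as in the study's methods) gave 944 doublets and 2385 nuclei without a tag, which were left out; no further doublet caller was run. Each side was clustered (2000 variable genes without the channel genes, 30 components, 20 neighbours, Leiden resolution 0.55). A cluster was named where the first and at least 3 markers of a list were 1.5-fold higher with at least 3 UMIs; clusters passing more than 1 list, or at least 3 non-neuronal markers, stayed unnamed, a rule set after the data were seen. The 30 non-neuronal nuclei come from a clustering at resolution 1.2. They are ARC-side nuclei and are counted among the 3767 ARC-side neurons of the main setting.

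UMIs were summed per group and given as CPM, with exact 95% Poisson intervals (scipy 1.17.1) and binomial intervals of ratios; no test was run, since all nuclei come from 1 library. A group with 0 UMIs is given the limit of 3 counts. Shares of nuclei were also computed after thinning to 1000 UMIs, leaving out 1 nucleus below that. Genes named are all members with at least 100 UMIs, those past 1.5-fold, list markers and partner lists. Members, lists and comparisons were chosen with earlier results of these data known. Gene positions are from GENCODE for mm10. The contrast step was tested on simulated data. Some genes that enter the counts are not reported here by name.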

Additional observations from a re-analysis of the deposited data

Results flagged for a closer look

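Scn7a, the sodium-sensing relative of the sodium channels, ran in opposite directions between pooled glutamatergic and pooled GABAergic clusters on the ARC and PVH sides. Single clusters did not follow the pooled direction throughout. On the ARC side the highest level was in the GABAergic dopaminergic-like cluster, at 90.7 CPM. The glutamatergic ARC-side cluster 7 was past the fold lower than the other ARC-side neurons. On the PVH side the GABAergic clusters 9 and 2 were highest, at 56.4 and 20.6 CPM. The log2 ratio of glutamatergic over GABAergic clusters was 0.68 (0.37 to 1.00) on the ARC side and -1.19 (-1.57 to -0.81) on the PVH side, a difference of 1.87. Without the mixed clusters the ratios were 0.83 and -1.51, and among single nuclei sorted by their own Slc17a6 or Slc32a1 UMI they were 1.02 and -0.15 (-0.75 to 0.48). The ARC-side ratio fell short of 1.5-fold under 4 alternatives beside the 2-fold limit, among them 0.27 with a hashtag quantile of 0.99 and 0.54 at resolution 1.2. That resolution also left out the 30 non-neuronal nuclei, which the main ARC-side groups include. Each side is 1 pooled group, and the difference between the sides was not tested. In the main setting Scn7a was the only channel gene past 1.5-fold in opposite directions on the sides. Without the mixed clusters it was not the only one: Cacng3, for example, was then at -0.84 on the ARC side and 0.77 on the PVH side. The level of Scn7a in the 30 non-neuronal nuclei was 216 CPM.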

How the results depend on the processing

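No paired analysis was possible because the samples are 1 gene expression library and its hashtag library. The 2 libraries share replicate number 1 as measures of the same nuclei, and they form no groups to pair. For the comparisons fixed at the start, counts of channel genes past 1.5-fold were within 1.5 times the first count in 119 alternatives and moved in 15. For those added after seeing the clusters the numbers were 46 and 4. These numbers include alternatives that could not move a count, such as keeping all singlet nuclei. The comparison between sides takes nuclei by tag, so that re-clustering changes it only where nuclei are left out as non-neuronal. With the mean over nuclei of CPM the count between sides was 1 in place of 2. With a 2-fold limit the counts were 1 between sides, 1 for glutamatergic over GABAergic ARC-side clusters, 5 for the AGRP-like, 3 for the POMC-like, 3 for the KNDy-like, 2 for the VMH-like and 2 for the dopaminergic-like class. With a floor of 5 expected UMIs they were 4 between sides and 5 for the transmitter comparison of the ARC side. Without the mixed clusters, an alternative chosen after seeing the data, that comparison went from 3 to 7 at the floor of 20. Thinning to 1000 UMIs gave 2 for the POMC-like, 4 for the VMH-like and 2 for the SST-like class, with fewer genes reaching the floor. The hashtag quantile of 0.99, which kept 1229 ARC-side and 407 PVH-side nuclei, gave 2 for the dopaminergic-like class and no KNDy-like or SST-like class, and resolution 0.3 gave no VMH-like class. Keeping all singlet nuclei changed no value, since no cluster was read as non-neuronal at the main resolution of 0.55. Resolution 1.2 changed the clusters and also left out the 30 non-neuronal nuclei. For 74 log2 ratios past the fold, 15 alternatives that could change a ratio gave 1008 values, of which 960 kept direction and fold, 45 fell short of 1.5-fold and 3 reversed; 25 of the 74 fell short or reversed under at least 1. The reversals were Cacna2d3 in the dopaminergic-like class at resolution 1.2 (-0.58), Scn3b in PVH-side cluster 11 after thinning (0.50, under 20 expected UMIs) and Cacng2 there at quantile 0.99 (0.064). The cause was not tested. The KNDy-like Cacna1g ratio stayed between 2.09 and 2.25. Depth limits genes under about 20 UMIs per cluster, among them Scn4b, Scn10a and Cacna1s, whose differences between clusters were not detectable.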
